A study of Mus musculus with 4 samples.

Results

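The cAMP branch of intracellular signalling was described through 10 genes: Adcy7, Prkaca, Prkar1a, Creb1, Crem, Crtc2, Crtc3, Sik1, Sik2 and Sik3. They were found by their trimmed gene symbol among the 53715 genes of the deposited expression table, and each symbol matched 1 row. All 10 passed the filter on low counts and were among the 16588 genes tested. The genes were chosen by their symbols with the KO over WT fold changes of these same libraries known, so their differences between genotypes are given as a description, without p-values.

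The libraries came from CD4+CD8+ double-positive thymocytes, the main developmental stage of T cells in the thymus, sorted from C57BL/6 mice aged 6 to 8 weeks. The knockout (KO) group, 2 libraries, carried the genotype LCKCre/+ Srsf1fl/fl, and the wild-type (WT) group, 2 libraries, is labelled WT with no other allele given. Srsf1 encodes an SR protein that acts in splice site choice, and the Lck-driven Cre removes it in the T lineage from early thymocytes on, so KO cells had passed earlier stages under the deletion. The labels do not say that the libraries of a group came from separate animals, so a p-value here covers only the spread among these libraries, which may be technical.

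Cyclic AMP is made by adenylyl cyclases and activates protein kinase A (PKA) by releasing its catalytic subunits from the regulatory subunits. PKA phosphorylates CREB, which binds the cAMP response element (CRE) in DNA, and it also inhibits the salt-inducible kinases (SIKs). SIKs phosphorylate the CRTC coactivators and hold them in the cytoplasm, so that SIK inhibition lets CRTCs reach CREB. Several genes of the pathway, among them Sik1, Crem, Pde4d and the Nr4a genes, are themselves known to respond to CREB. The mRNA levels measured here say nothing of phosphorylation or of the place of these proteins in the cell.

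The promoter windows below show how the CRE letters lie in 2 members picked because their windows hold them, Prkar1a and Sik3, and in 2 CREB target genes called lower in KO, Nr4a1 and Nr4a3. They run from 250 bases before to 50 after an annotated start, on the plus strand, from RefSeq on GRCm38.p6. Capitals mark the CRE core TGACG, or CGTCA where it lies on the other strand, and the whole CRE TGACGTCA. The first belongs to Prkar1a at chr11:109650699-109650998, the second to Sik3 at chr9:46012570-46012869, the third to Nr4a1 at chr15:101266596-101266895 and the last to Nr4a3 at chr4:48045055-48045354.
Prkar1a: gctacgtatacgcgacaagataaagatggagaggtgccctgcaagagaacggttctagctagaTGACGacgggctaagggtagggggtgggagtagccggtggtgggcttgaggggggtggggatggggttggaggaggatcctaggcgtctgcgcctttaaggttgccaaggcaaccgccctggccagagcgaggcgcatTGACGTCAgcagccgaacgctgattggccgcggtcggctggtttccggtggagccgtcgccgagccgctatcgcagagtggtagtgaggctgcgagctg
Sik3: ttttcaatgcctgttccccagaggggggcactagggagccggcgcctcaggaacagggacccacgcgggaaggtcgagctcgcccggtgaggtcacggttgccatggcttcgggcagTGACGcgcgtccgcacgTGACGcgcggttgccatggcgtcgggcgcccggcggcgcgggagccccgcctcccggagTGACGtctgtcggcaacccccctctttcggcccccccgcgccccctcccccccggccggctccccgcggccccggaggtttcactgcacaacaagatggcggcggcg
Nr4a1: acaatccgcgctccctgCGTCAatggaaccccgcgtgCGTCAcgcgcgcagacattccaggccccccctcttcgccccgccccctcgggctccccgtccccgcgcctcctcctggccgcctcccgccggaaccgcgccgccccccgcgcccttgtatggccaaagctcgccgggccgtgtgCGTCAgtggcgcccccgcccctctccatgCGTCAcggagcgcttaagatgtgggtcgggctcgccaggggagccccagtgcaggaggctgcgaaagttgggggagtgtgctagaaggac
Nr4a3: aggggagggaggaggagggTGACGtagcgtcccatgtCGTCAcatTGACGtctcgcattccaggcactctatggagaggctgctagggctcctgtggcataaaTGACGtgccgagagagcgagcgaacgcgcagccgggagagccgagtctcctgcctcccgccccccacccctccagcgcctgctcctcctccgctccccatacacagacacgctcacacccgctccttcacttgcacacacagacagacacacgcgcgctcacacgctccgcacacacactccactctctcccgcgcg

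The Prkar1a window holds the whole CRE, starting 49 bases before the start site, and a separate core at -187. The Sik3 window holds cores at -133, -116 and -57, the Nr4a1 window at -233, -213, -69 and -40, and the Nr4a3 window at -231, -213, -205 and -147. Of the 6 Prkar1a windows 3 held no core. Windows were matched for 7 of the 10 members, not for Crem, Crtc2 and Sik1, and 5 of the 7 held a core in at least 1 window, namely Adcy7, Prkaca, Prkar1a, Sik2 and Sik3. The windows of Creb1 and Crtc3 held none of these letters. Over all 27025 genes with windows, 23.0% held a core and 2.03% the whole CRE, searched on both strands. Among the 32851 single windows the shares were 20.8% and 1.79%. Every whole CRE contains a core on each strand, and a gene with several windows, as Prkar1a has, meets the search more often than a gene with 1. A match is a description of the letters and not a binding site, and none of these windows was tested for binding.

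The 4 libraries held 37033180 and 36389555 counts in KO and 35862730 and 36515358 counts in WT. Srsf1 had 1839 and 1772 counts in KO and 4821 and 4485 counts in WT, a log2 fold change of -1.39 (SE 0.09, edgeR quasi-likelihood test, adjusted p = 2.91e-06), so the labels and the targeted gene go the same way. Across all genes the test called 1100 higher and 1308 lower in KO at an adjusted p under 0.05, which is 14.5% of genes tested. Genes listed as markers of double-positive cells summed to 11960 and 11580 CPM (counts scaled to the library total) in KO. In WT they summed to 8578 and 8266 CPM, and 6 of the 10 were called higher in KO. Of the other cell types, mature single-positive T cell markers summed to 200.6 to 215.6 CPM in KO and 222.5 to 229.8 CPM in WT, with Ccr7, S1pr1 and Klf2 of 6 lower, and natural killer or gamma delta T cell markers to 53.5 to 60.7 CPM in KO and 39.5 to 45.2 CPM in WT, with Trdc of 5 higher and Ncr1 at 0. B cell markers summed to 21.2 to 23.1 CPM in KO and 11.9 to 12.7 CPM in WT, with Cd79b of 6 higher. Myeloid markers summed to 5.94 to 10.2 CPM in KO and 6.36 to 7.91 CPM in WT, erythroid markers to at most 3.05 CPM in KO and 5.26 CPM in WT, and stromal markers to 12.5 to 13.9 CPM in KO and 12.7 to 14 CPM in WT, with Clec9a, Foxn1, Krt5 and Col3a1 at 0. The part of these marker differences in the results was not tested. In bulk samples, fewer cells of a type and less RNA per cell cannot be told apart.

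Of the 10 genes, Creb1 was called higher in KO, Crem, Sik1 and Prkar1a were called lower, and Adcy7, Prkaca, Crtc2, Crtc3, Sik2 and Sik3 were not called. The 4 calls stand beside a background of 14.5% of all genes tested (6.63% higher, 7.89% lower), and nothing is read from that ratio because the genes were put forward with this contrast known. The median log2 fold change of the 10 was -0.09, against 0.00 over all genes tested. Both KO libraries lay above both WT libraries for 4 genes and below them for 5, and the libraries overlapped for Sik2. Among all genes tested, KO lay above WT in this way for 27.8% and below for 28.1%, together 55.9%. Levels per gene length are given in RPKM, the count scaled by gene length and by the library's total, with means ± SD over 2 libraries.

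**Figure D1:**
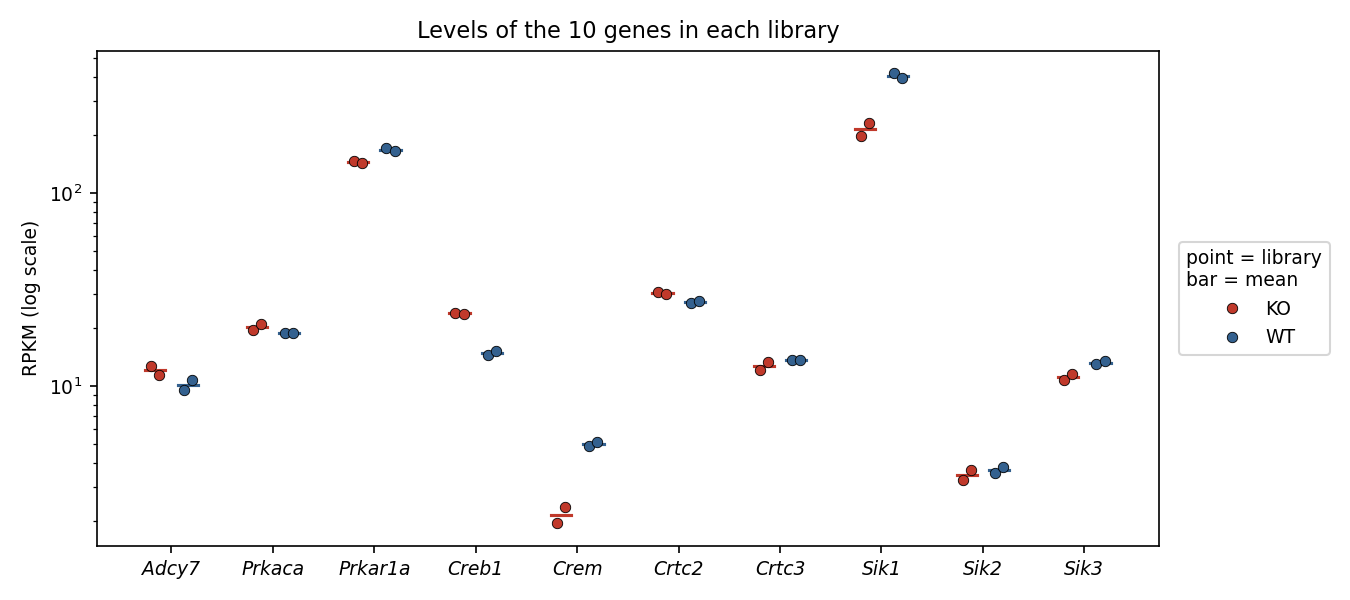
RPKM on a log axis for each of the 10 genes in every library, with KO points left of WT points and a bar at each group's mean. Creb1 is the gene with clearly higher KO points (23.8 RPKM in KO against 14.8 RPKM in WT), and Crem and Sik1 have KO points well under their WT points (Crem 2.15 RPKM in KO against 4.99 RPKM in WT, Sik1 215.4 RPKM in KO against 406.7 RPKM in WT).

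At the head of the pathway, Adcy7 encodes a membrane adenylyl cyclase that makes cAMP. It had 12.6 and 11.4 RPKM in KO libraries, against 9.49 and 10.8 RPKM in WT libraries. Both KO values were above both WT values, but the gap between the nearest libraries was smaller than the spread within either group. The log2 fold change was 0.25 (SE 0.10), and the gene was not called. Among the cyclases measured, Adcy7 made up 18.5% and 14.4% of the summed RPKM in KO and 12.6% and 15.4% in WT. Those shares overlapped between groups, and Adcy6 held most of the rest in every library, at 71.3% and 76.1% in KO and 75% and 68.2% in WT.

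The PKA holoenzyme is represented by its alpha catalytic subunit, Prkaca, and its type I alpha regulatory subunit, Prkar1a, which inhibits the catalytic subunit until cAMP binds. Prkaca had 19.4 and 21.1 RPKM in KO libraries, against 18.8 and 18.8 RPKM in WT libraries. Its 2 WT libraries were almost equal and its KO libraries lay above them, with a log2 fold change of 0.11 (SE 0.12) and no call. Prkar1a had 146.1 and 143.3 RPKM in KO libraries, against 170.9 and 165.6 RPKM in WT libraries. Its groups were well separated for a small change, with KO at 86.0% of the WT mean, a log2 fold change of -0.22 (SE 0.06) and a call as lower. That call was lost when any 1 library was left out, with log2 fold changes of -0.19 without WT replicate 1, -0.24 without WT replicate 2, -0.21 without KO replicate 1 and -0.21 without KO replicate 2. It was also lost with the replicate number as a block (-0.22) and with upper-quartile factors (-0.20), and stood in 6 of 15 alternatives.

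Seen as a family, the regulatory subunits were almost all Prkar1a, which made up 95.7% and 96.4% of their summed RPKM in KO and 96.7% and 96.4% in WT. The catalytic subunits were shared about evenly between Prkaca and Prkacb, the beta catalytic subunit, and Prkaca held 45.3% and 49.6% in KO and 50.2% and 51.4% in WT. Prkacb averaged 22.4 ± 1.49 RPKM in KO and 18.2 ± 0.544 RPKM in WT (SD, n = 2 each) and was called higher (log2 fold change 0.30, SE 0.08, edgeR adjusted p = 0.0245). The call was lost without WT replicate 2 (log2 fold change 0.28) and without KO replicate 1 (0.25), and the edgeR, DESeq2 and limma adjusted p ranged from 0.00274 to 0.177 over the alternatives. The ratio of summed regulatory to summed catalytic RPKM was 3.56 and 3.50 in KO, against 4.74 and 4.69 in WT. Both KO ratios were thus below both WT ratios, with a gap far larger than the spread within either group, and the ratio, which includes members, is given without a test.

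Creb1 encodes CREB, a leucine zipper protein that binds the CRE. It had 24.0 and 23.7 RPKM in KO libraries, against 14.5 and 15.2 RPKM in WT libraries. The KO libraries lay close together and well above WT, at 160.7% of the WT mean, with a log2 fold change of 0.69 (SE 0.07) and a call as higher. Crem encodes a close relative whose transcripts give activators or repressors, among them ICER, a repressor made from an internal promoter that is itself induced by cAMP. Crem had 1.94 and 2.35 RPKM in KO libraries, against 4.87 and 5.12 RPKM in WT libraries. These values rest on 424 and 504 counts in KO and 1029 and 1102 counts in WT, and the groups were far apart, with KO at 43.0% of the WT mean. The log2 fold change of Crem was -1.22 (SE 0.18), the largest in size among the 10, and it was called lower. Gene counts do not resolve isoforms, so ICER and the full-length forms were not separated.

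Creb1 and Crem thus moved in opposite directions, and their ratio shows it within each library. There were 12.4 and 10.1 RPKM of Creb1 for each RPKM of Crem in KO, against 2.98 and 2.96 in WT. Together with Atf1, the other close relative of CREB, the family summed to 55.0 and 58.2 RPKM in KO and 59.7 and 61.6 RPKM in WT. The family sums differed by much less than its make-up. Creb1 made up 43.7% and 40.7% of the family in KO and 24.3% and 24.6% in WT, and Crem 3.53% and 4.04% in KO and 8.15% and 8.31% in WT. Atf1 took 52.8% and 55.3% in KO and 67.5% and 67.1% in WT, and its own level fell to 30.6 ± 2.19 RPKM in KO, against 40.8 ± 0.699 RPKM in WT (SD, n = 2 each; log2 fold change -0.41, SE 0.09, edgeR adjusted p = 0.00795). For all 3 genes the shares of the 2 genotypes did not overlap.

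**Figure D2:**
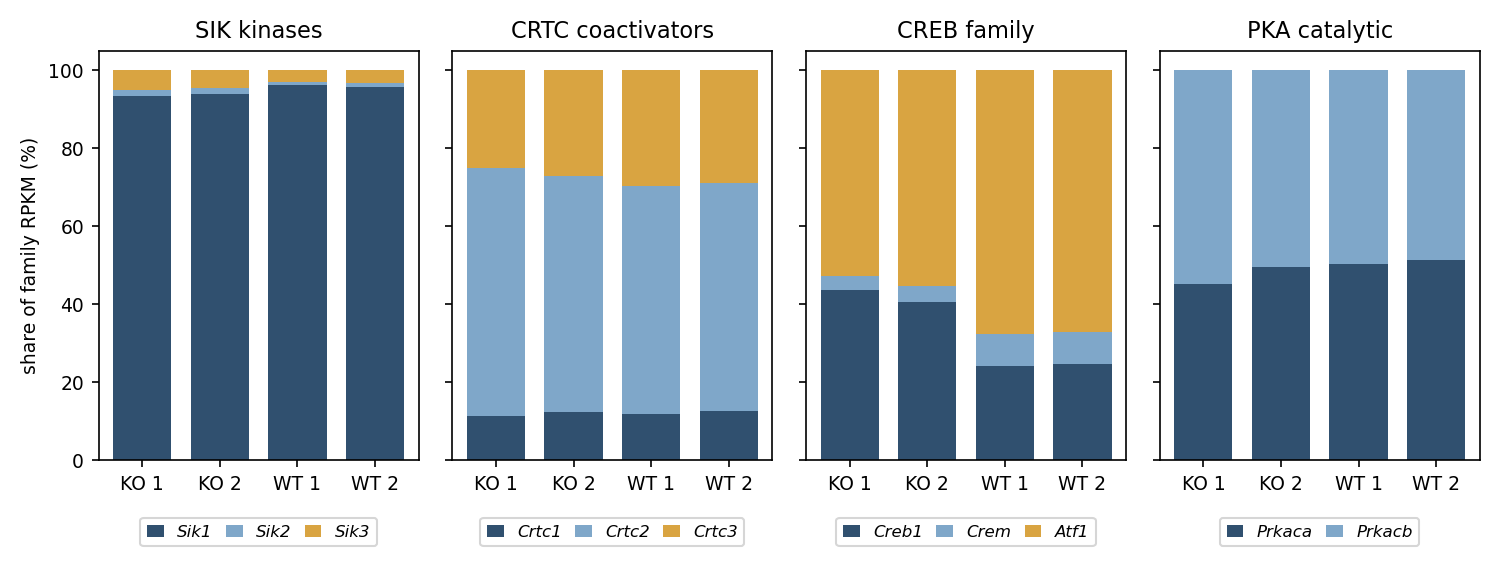
Share of each gene in the summed RPKM of its family, in percent, for every library, KO left of WT. The CREB family shows the largest shift, with Creb1 near 42% in KO and 24% in WT, while Sik1 holds over 93% of the SIK family in all 4 libraries.

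The CRTC coactivators bind CREB once they are dephosphorylated and enter the nucleus. Crtc2 had 30.6 and 30.0 RPKM in KO libraries, against 26.9 and 27.4 RPKM in WT libraries, and it was not called (log2 fold change 0.16, SE 0.08). Crtc3 had 12.1 and 13.4 RPKM in KO libraries, against 13.6 and 13.6 RPKM in WT libraries, and it was not called either (-0.09, SE 0.09). Crtc2 lay higher in both KO libraries and Crtc3 lower in both, with differences of a few RPKM at most. Crtc1, the third coactivator, overlapped between groups, at 5.43 and 6.17 RPKM in KO and 5.52 and 5.93 RPKM in WT. In the CRTC family Crtc2 made up 63.6% and 60.5% in KO and 58.4% and 58.4% in WT, and Crtc3 25.1% and 27.0% in KO and 29.6% and 29.0% in WT. The summed level of the 3 coactivators was 48.1 and 49.6 RPKM in KO and 46.0 and 47.0 RPKM in WT.

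Of the SIKs, Sik1 is the one whose transcription is induced by cAMP, and Sik2 and Sik3 are related kinases activated, like it, by LKB1. Sik1 had 198.3 and 232.5 RPKM in KO libraries, against 418.9 and 394.5 RPKM in WT libraries. It was the most abundant of the 10 genes in every library, and its KO values were near 53% of WT, with a log2 fold change of -0.91 (SE 0.08) and a call as lower. On the deposited gene length of 4511 bases, the difference of the group means, -191.3 RPKM, exceeded the whole level of any other member. The annotation used here has 5133 exon bases for Sik1, and the comparison was not repeated on that length. Sik2 had 3.24 and 3.67 RPKM in KO libraries, against 3.55 and 3.81 RPKM in WT libraries. Its libraries overlapped, and it was not called (log2 fold change -0.09, SE 0.14). Sik3 had 10.8 and 11.5 RPKM in KO libraries, against 13.0 and 13.5 RPKM in WT libraries, at 84.0% of the WT mean (-0.25, SE 0.08). Both KO values of Sik3 lay below both WT values without a call, though it was called lower without KO replicate 2 (-0.30) and with a filter at a mean of 1 CPM (-0.26).

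Within the SIK family Sik1 made up 93.4% and 93.9% of the summed RPKM in KO and 96.2% and 95.8% in WT. Sik3 made up 5.07% and 4.64% in KO and 2.98% and 3.28% in WT, and Sik2 1.52% and 1.48% in KO and 0.815% and 0.925% in WT. The family sum, 212 and 248 RPKM in KO against 435 and 412 RPKM in WT, followed Sik1 closely. Each RPKM of Sik3 stood beside 18.4 and 20.3 RPKM of Sik1 in KO, against 32.3 and 29.2 in WT. All these shares and ratios were separate between the genotypes. Because Sik1 makes up most of the sum, its fall raises the shares of Sik2 and Sik3. Their separation is therefore no further result: Sik2's own libraries overlapped, and Sik3 itself lay lower in KO.

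**Figure D3:**
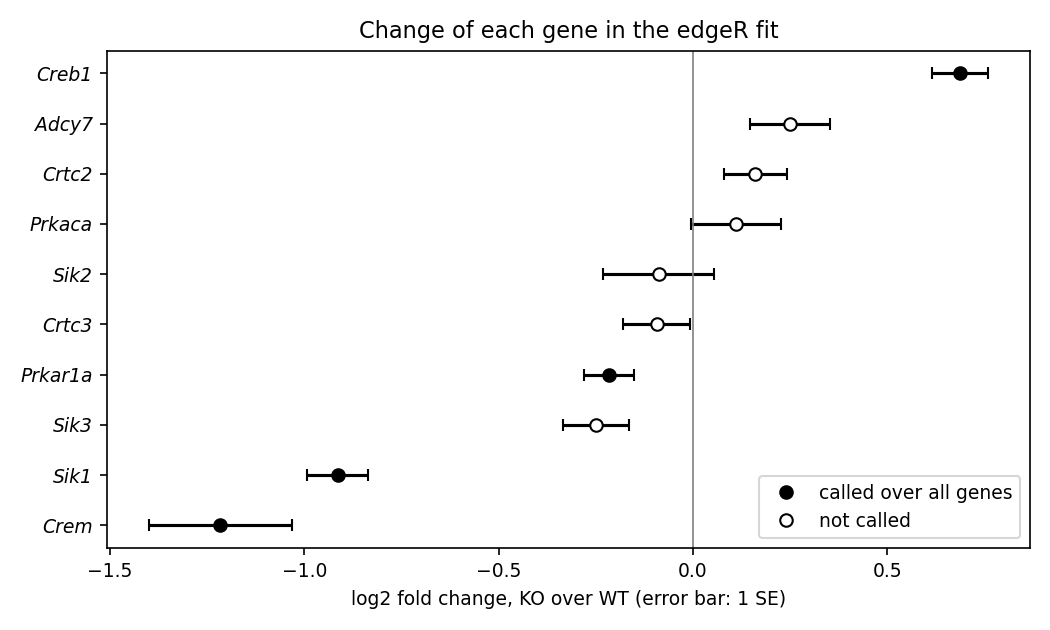
Log2 fold change of KO over WT for each of the 10 genes, with bars of 1 standard error from the edgeR fit and filled points for genes called over all genes tested. Creb1 is at 0.69, Crem at -1.22, Sik1 at -0.91 and Prkar1a at -0.22, and the 6 genes not called lie between -0.25 and 0.25.

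Ordered by mean RPKM, KO libraries ran from Sik1 through Prkar1a, Crtc2, Creb1, Prkaca, Crtc3, Adcy7, Sik3 and Sik2 to Crem. The order in WT was Sik1, Prkar1a, Crtc2, Prkaca, Creb1, Crtc3, Sik3, Adcy7, Crem and Sik2. Creb1 stood above Prkaca in KO and below it in WT, Crem was the lowest of the 10 in KO and above Sik2 in WT, and Adcy7 and Sik3 changed places. In KO the neighbours Crtc3 and Adcy7, and Adcy7 and Sik3, overlapped, so their order rests on means only, while in WT no neighbours overlapped. By mean level over all libraries Sik1 was at the 99.5th percentile of genes tested and Prkar1a at the 98.7th. Crem and Sik2, both at the 50.3rd percentile, sat in the middle of all genes tested. By size of the log2 fold change Crem was at percentile 88.7, Sik1 at 82.8 and Creb1 at 74.8, and the other 7 were all below 40.

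The genes lie on 8 chromosomes of GRCm38, and Sik2 and Sik3 share chromosome 9 while Prkaca and Adcy7 share chromosome 8. Creb1 spans chromosome 1, 64532645 to 64604548, on the plus strand, with 11 annotated transcripts. Crem spans chromosome 18, 3266048 to 3337748, on the minus strand, with 39 transcripts, and 8.01% of its exon bases are shared with Gm6225 on the opposite strand. Sik1 spans chromosome 17, 31844250 to 31855804, on the minus strand. The gene length deposited for it, 4511 bases, is shorter than the 5133 exon bases of the annotation used here. The same counts would give a lower RPKM on that longer length, and reads were not counted anew on it. Prkar1a spans chromosome 11, 109649405 to 109669656, on the plus strand. Of Sik2, at chromosome 9, 50892801 to 51009073, 15% of exon bases are shared with Ppp2r1b on the opposite strand. The strand setting of the counting is unknown, so counts in these shared stretches may hold reads of the partner gene.

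Other genes of the pathway were taken from 6 lists, 140 genes in all, of which 116 were tested, with 12 called higher and 24 lower. The called share was 31%, beside 14.5% of all genes tested, and the median log2 fold change was -0.14, beside 0.00. The lists were chosen with earlier results of these data known, so nothing is read from their called shares or medians. Without WT replicate 2 the higher calls numbered 6. Among receptors, G proteins and cyclases 2 rose and 3 fell of 18 tested (median -0.42), and among phosphodiesterases 0 rose and 2 fell of 12 (median -0.35), both by edgeR, which gave 4542 genes an unadjusted p under 0.05 overall. Among PKA subunits, anchors and Epac 3 rose and 2 fell of 18 (median -0.02), and among CREB relatives and coactivators 1 rose and 2 fell of 15 (median -0.09). Among LKB1, AMPK-related kinases, calcineurin, 14-3-3 proteins and class IIa deacetylases 5 rose and 5 fell of 29 (median -0.09). Single libraries moved some of these counts: without WT replicate 2 the receptor list had 1 higher call, the PKA list 1 and the LKB1 list 3, with 3 lower in the last. Without KO replicate 2 the receptor list had 6 lower calls, and the LKB1 list had 2 lower without WT replicate 1 and 3 without KO replicate 1.

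**Figure D4:**
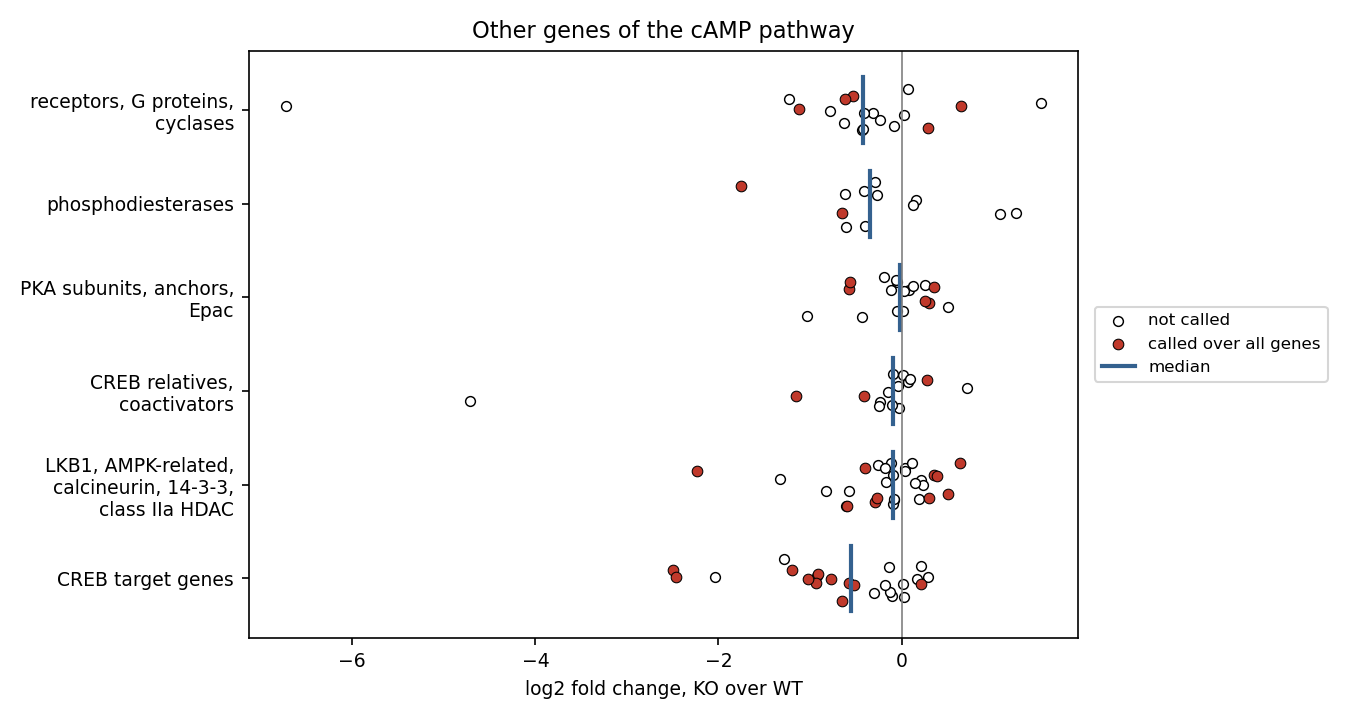
Log2 fold change of KO over WT for every tested gene of the 6 pathway lists, filled where called, with a bar at each list's median. The CREB target genes have the lowest median (-0.55), and the far left points are genes with few counts, Adcy4 with none in KO and Creb3l1 with 1, whose fitted values set no bound.

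Upstream of PKA, the prostaglandin E2 receptor gene Ptger4, which shares 16.5% of its exon bases with other genes, fell (-0.53, SE 0.10, edgeR adjusted p = 0.00306). The calcium-stimulated cyclase gene Adcy1 and the G protein gene Gnal fell as well (-1.12, SE 0.22 and -0.62, SE 0.10), and Gnai2, an inhibitory G protein, rose by 0.29, a call lost without WT replicate 2 (0.26). The most abundant uncalled genes of this list, Adcy6 and Gnai3, had log2 fold changes of 0.07 and 0.03. Pde4d, a phosphodiesterase that breaks down cAMP and is induced by it, fell to 238.3 ± 2.40 CPM in KO, against 805.1 ± 2.41 CPM in WT (SD, n = 2 each; -1.75, SE 0.07, edgeR adjusted p = 3.27e-08). Pde4b fell by 0.65 (SE 0.09). Pde3b was not called (-0.60), with 2095 and 978 counts in KO, and was called lower without KO replicate 1 (-1.22) and with the replicate block (-0.68). Pde1b was not called either (-0.26).

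Beside Prkacb, the anchoring protein genes Akap13 and Akap12, which tether PKA, fell by 0.56 and 0.58 on the log2 scale. Akap8l and Ezr rose by 0.36 and 0.26, calls that were lost without WT replicate 1 (0.30) and without WT replicate 2 (0.26). Akap8 (0.12) and Rapgef3 (-0.06) were not called. Crebrf, which encodes a regulatory factor of a CREB-like protein, fell to 52.4 ± 1.93 CPM in KO, against 117.0 ± 7.95 CPM in WT (SD, n = 2 each; -1.16, SE 0.10, edgeR adjusted p = 1.36e-05). Nono, a CRTC-binding factor, rose by 0.28, a call lost without WT replicate 2 (0.27). The acetyltransferase genes Ep300 (-0.24) and Crebbp (-0.11), which CREB recruits, were not called, though Ep300 was called lower in 5 of 15 alternatives. These were DESeq2, limma-voom, no filter on low counts and a mean of at least 1 CPM (-0.24 to -0.25), and leaving out KO replicate 2 (-0.36).

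On the SIK side, the class IIa histone deacetylases are substrates of the SIKs, and 2 of them moved apart. Hdac7, the most abundant of these in thymocytes, rose to 1980 ± 30.0 CPM in KO, against 1521 ± 56.4 CPM in WT (SD, n = 2 each; 0.38, SE 0.06, edgeR adjusted p = 0.00116), and Hdac5 fell by 0.60 (SE 0.08). Of the 14-3-3 genes, whose proteins hold phosphorylated CRTCs and deacetylases in the cytoplasm, Ywhah (0.64), Ywhab (0.50) and Ywhaq (0.35) rose and Ywhag (-0.40) and Ywhaz (-0.27) fell. Ywhae was not called (0.23) but was called higher in 5 of 15 alternatives, namely DESeq2, limma-voom, no filter on low counts and a mean of at least 1 CPM (all 0.23), and without KO replicate 2 (0.33). Nuak1, an AMPK-related kinase gene, fell to 1.61 ± 0.636 CPM in KO, against 7.64 ± 0.0393 CPM in WT (-2.24, SE 0.40, edgeR adjusted p = 0.0026). The calcineurin genes Ppp3cb (0.30, higher) and Ppp3r1 (-0.29, lower) were called in opposite directions, and Cab39, a partner of LKB1, was not called (0.04).

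Of 24 tested CREB target genes, 10 were called lower and 1 higher, a called share of 45.8% beside 14.5% of all genes tested, and the median log2 fold change was -0.55 beside 0.00. Both KO libraries lay below both WT libraries for 15 of the 24 and above them for 1, beside 28.1% and 27.8% of all genes tested. This list was chosen with earlier results of these data known, so nothing is read from its shares or its median. These genes answer to other signals too, and Nr4a1 and Nr4a3 are known to be induced through the T cell receptor in thymocytes. Nr4a3 had 53.0 and 60.4 CPM in KO libraries, against 307.8 and 332.4 CPM in WT libraries, and Nr4a1 had 571.9 and 698.7 CPM in KO libraries, against 1178 and 1212 CPM in WT libraries. The log2 fold changes were -2.49 for Nr4a3 (SE 0.09, edgeR adjusted p = 3.27e-08), -1.19 for Nr4a2 (SE 0.10, edgeR adjusted p = 1.29e-05) and -0.91 for Nr4a1 (SE 0.09, edgeR adjusted p = 4.13e-05), so all 3 orphan receptor genes of this family fell.

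The clock genes Per1 (-0.77, SE 0.08) and Per2 (-2.46, SE 0.33) fell, as did Nfil3 (-0.93), a transcription factor of the same rhythm network. Irs2, an insulin receptor substrate, fell to 304 ± 45.3 CPM in KO, against 618 ± 14.7 CPM in WT (SD, n = 2 each; -1.02, SE 0.09, edgeR adjusted p = 2.78e-05). Rgs2, which shortens G protein signals, Ier2 and Btg2 fell by 0.65, 0.58 and 0.52. Mcl1, a survival factor of the BCL2 family, rose by 0.22, a single higher call that was absent without WT replicate 2 or without KO replicate 2, when the list had 0, while 4 genes were higher without KO replicate 1. Of the other immediate early genes, Egr1 (0.17), Fos (0.29) and Fosb (-0.92) were not called. Junb, with 33468 and 46840 counts in KO, was not called (-0.30) but was called lower without KO replicate 2 (-0.58), with the replicate block (-0.32) and by limma-voom (-0.32). Dusp1 was not called (0.21) but was called higher without KO replicate 1 (0.41) and with no filter on low counts (0.21). Windows were found for 25 of the 29 listed targets, and 21 of them, 84.0%, held a CRE core, while 4 held the whole CRE. Of the 10 called lower, 8 had windows and 7 of these, 87.5%, held a core. The list was made of known CREB targets, so these shares follow from how it was chosen and are no result about the genes called.

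**Figure D5:**
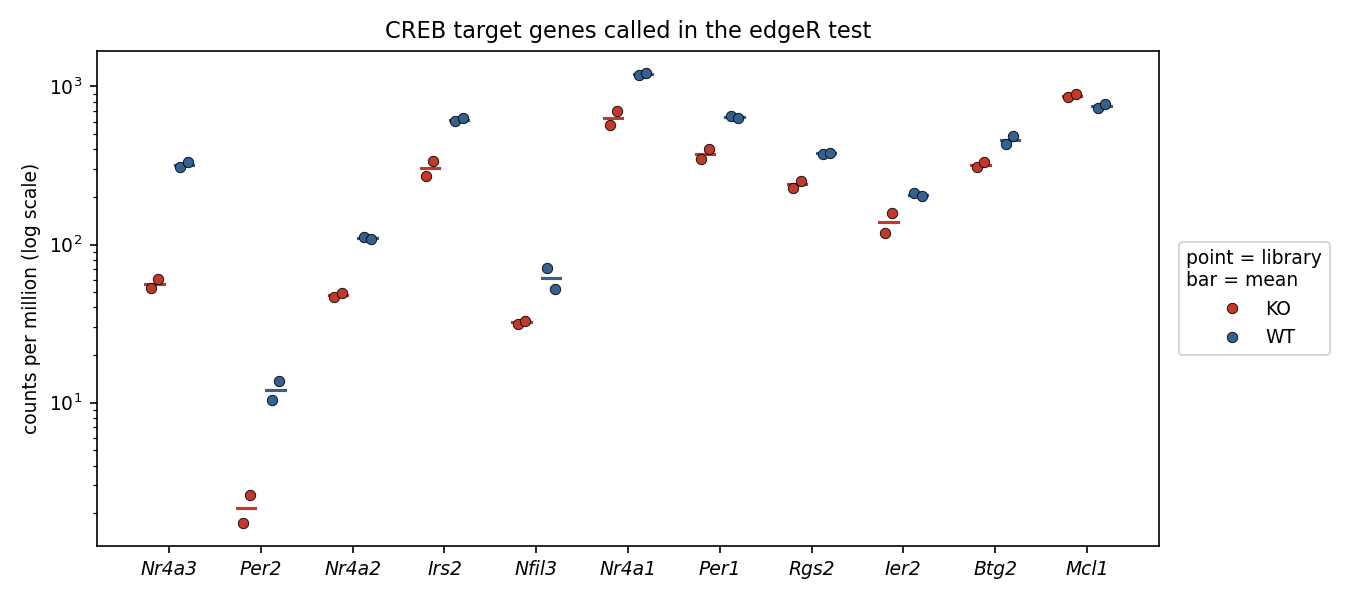
CPM on a log axis in every library for the 11 CREB target genes that were called, KO left of WT with a bar at each mean. KO points lie below WT points for 10 genes, from Nr4a3 (56.7 CPM in KO against 320.1 CPM in WT) to Btg2, and above them for Mcl1 (873 CPM in KO against 753 CPM in WT).

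The patterns nearest to those of Crem and Prkaca were sought among 9097 genes averaging 5 CPM or more, by the Euclidean distance of log2 CPM centred on each gene's mean over the 4 libraries. Nearest to Crem were Bend5 (distance 0.0309), Jmy (0.0623), Syde2 (0.0793), Glce (0.0895) and Il15ra (0.0951), whose log2 fold changes lay between -1.27 and -1.19, beside -1.22 for Crem. Nearest to Prkaca were Rpl27 (distance 0.00968), Polr3c (0.0179), Zfp592 (0.0206), Npepps (0.0212) and Mknk2 (0.0224). The distances rest on 4 libraries and describe these only.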

How the data were processed

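Reads of 4 libraries were processed by the authors with STAR 2.6.0a and HTSeq 0.6.1 on GRCm38 (mm10), beside cutadapt 1.17, FastQC 0.11.5 and DESeq2 1.24.0, per the submitters' processing notes. The strand setting of the counter and its annotation release were not given in the sources used here. The authors deposited 1 file of gene counts a library and 1 table of RPKM values with gene lengths in bases. All RPKM values (100%) equalled the deposited count divided by that length and the library total, within a relative tolerance of 1e-06. CPM was computed from the counts, and 1 count was worth 0.027 to 0.0279 CPM.

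KO was compared with WT on the counts by edgeR 4.0.16 in R 4.3.3 (quasi-likelihood test, TMM factors 0.9926 to 1.006, filterByExpr, robust fit, genotype as the only term), two-sided, with Benjamini-Hochberg adjustment over 16588 genes and calls at an adjusted p under 0.05. Standard errors came from the log2 fold change and the F statistic. Family shares and ratios of RPKM had no test. Gene identifiers, unversioned, matched GENCODE M21 for 53620 of 53715 genes, and promoter windows came from RefSeq.

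The 10 genes and the 6 pathway lists were chosen with earlier results of these data known. Named were the members, Srsf1, from each list up to 5 called genes by adjusted p (mean of at least 1 CPM) and the 2 most abundant uncalled genes, and the 5 nearest patterns to Crem and Prkaca. The other called genes of short counts, and Crtc1, Junb, Dusp1, Fos, Fosb, Egr1, Adcy4 and Creb3l1 where that rule leaves them out, were picked with their values in view. A named gene of 1 list is not reported here.

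Replicate libraries differed beyond sampling noise (chi-square over degrees of freedom 19 for the KO pair and 16.7 for the WT pair). This spread may be technical and does not show that the libraries came from separate animals. Each library was counted as 1 sample. The fit was tried on simulated counts. Alternatives were other scaling factors and filters, DESeq2 1.42.0, limma-voom and limma 3.58.1 on log2 RPKM, a replicate block, and leaving out each library. Figures were drawn with matplotlib 3.10.9 in Python 3.11.15.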

Additional observations from a re-analysis of the deposited data

How the results depend on the processing

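Over 15 alternatives every member kept its direction except Sik2 (log2 fold change -0.19 to 0.02), and the calls of Crem (-1.36 to -1.06), Creb1 (0.66 to 0.72) and Sik1 (-1.04 to -0.79) were lost only with limma on log2(RPKM + 0.5) over all genes above 0. Prkar1a (-0.24 to -0.19) was called in 6 of 15 and Sik3 (-0.30 to -0.19) in 2. That limma fit called 0 of 25133 genes higher and 0 lower (4289 at an unadjusted p under 0.05, against 2685 adjusted calls by DESeq2), so members and other pathway genes had 0 calls in both directions, and Srsf1 was at -1.34 with a limma adjusted p of 0.0731 (2.91e-06 by edgeR). With a mean RPKM of at least 1, limma called 483 higher and 621 lower with a pseudocount of 0.5, and 477 and 615 with 0.1, and 4 other pathway genes higher with either; edgeR gave 1100, 1308 and 12. The calls of Adcy1, Gnai2, Prkacb, Akap8l, Ezr and Nono were lost in all 3 limma fits on RPKM. The cause was not tested. Leaving out each library gave 949 to 1213 higher and 1031 to 1484 lower over all genes, and 6 to 14 higher and 22 to 31 lower among other pathway genes. The labels number the replicates 1 and 2 in both genotypes without saying that a number marks a shared litter or day, and same-numbered libraries did not deviate together (correlation -0.0391). With the replicate block 1304 genes were higher and 1505 lower, the members had 1 higher and 2 lower, and the block ended the Prkar1a call. No scaling factor moved the median of all genes by 0.1 or more. Members had at least 424 counts in every library, and the spread between 2 libraries a group limits what small differences, such as those of Adcy7, Prkaca and the CRTC genes, can show.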
